A study of Mus musculus with 39 samples.

Results

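The 9 genes described here code for proteins of the intestinal goblet cell, namely Muc2, Fcgbp, Clca1, Zg16, Tff3, Agr2, Spdef, Spink4 and Ccl6. They were chosen by name, and all 9 were found among the 56980 genes of the count files and passed the filter on low counts that left 14658 tested genes. The counts came from RNA sequencing of mucosa scraped from the proximal small intestine of 39 female C57BL/6JRccHsd mice, with the first 2 cm of duodenum left out. Mice were weaned on day 21 onto 1 of 3 semi-synthetic diets, fed it for 3 weeks and sampled on day 42 in the fed state, with 13 mice and 13 libraries per diet. The lactose diet held 32 en% of lactose, a disaccharide of galactose and glucose, where en% is the share of dietary energy. The galactose diet held the same sugars in free form, as 16 en% galactose and 16 en% glucose, and the glucose diet held 32 en% glucose. Every diet also held 32 en% starch, and fructose (3 en%), protein (20 en%) and fat (20 en%) were the same in all. The comparison of lactose with galactose therefore sets bound against free sugars of the same kind, and the comparisons with glucose set a galactose source against none.

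Goblet cells are the mucus-secreting cells of the intestinal epithelium. They arise from crypt progenitors that escape Notch signalling and switch on Atoh1, and they store mucin in granules that are released into the lumen, where the mucin swells into a gel. In the small intestine this mucus is loose and is mixed with antimicrobial products of Paneth cells, which come from the same secretory lineage. Muc2 is the gel-forming mucin at the core of that mucus. Fcgbp is a very large secreted protein of the same gel, Clca1 a secreted metalloprotease that cleaves Muc2, Zg16 a small lectin that binds the wall of Gram-positive bacteria, and Tff3 a trefoil peptide that aids epithelial repair. Agr2 is an endoplasmic reticulum protein needed to make Muc2, and Spdef is an ETS transcription factor of goblet and Paneth cell maturation. Spink4 belongs to the Kazal family of serine protease inhibitors, and Ccl6 is a mouse CC chemokine that macrophages and eosinophils also make.

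Promoter sequence was at hand for 5 of the 9 genes, in the RefSeq annotation of GRCm38.p6, as the 250 bases before and 50 bases after the start of the gene. The windows of Muc2 (chr7:141690090-141690389, plus strand) and Fcgbp (chr7:28070986-28071285, plus strand) are shown because these genes varied together between mice more closely than Muc2 did with any other member. Capitals mark 3 motifs searched on both strands, the TATA box TATAAA, the E-box CAGNTG read by basic helix-loop-helix factors such as Atoh1, and GATAA, the core read by GATA factors.
Muc2: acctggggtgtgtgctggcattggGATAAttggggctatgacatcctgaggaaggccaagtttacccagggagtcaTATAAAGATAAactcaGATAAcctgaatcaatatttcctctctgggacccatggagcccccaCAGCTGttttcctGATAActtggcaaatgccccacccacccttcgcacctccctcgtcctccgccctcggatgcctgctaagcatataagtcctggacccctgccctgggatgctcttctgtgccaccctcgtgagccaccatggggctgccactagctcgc
Fcgbp: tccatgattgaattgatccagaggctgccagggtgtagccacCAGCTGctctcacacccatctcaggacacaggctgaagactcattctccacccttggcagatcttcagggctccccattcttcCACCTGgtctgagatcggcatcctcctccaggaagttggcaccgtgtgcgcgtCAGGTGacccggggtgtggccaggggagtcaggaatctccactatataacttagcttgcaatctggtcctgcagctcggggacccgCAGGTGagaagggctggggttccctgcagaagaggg
The Muc2 window held 1 TATAAA, 1 CAGNTG and 4 GATAA, of which 1 directly follows the TATAAA. The Fcgbp window held 4 CAGNTG and neither of the other motifs. The windows of Agr2, Spdef and Ccl6 held none of the 3. Among 32851 promoter windows of the same length, TATAAA was found in 13.6%, CAGNTG in 51.4% and GATAA in 25.4%. A match describes the letters and not a bound site.

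Libraries held 19685385 to 21350610 gene counts. The labelled tissue was borne out by the enterocyte list, whose 10 genes, among them Apoa4, Fabp2 and Sis, summed to 60848 to 85302 CPM (counts scaled to library size) in lactose mice, 53478 to 80062 CPM in galactose mice and 56035 to 89295 CPM in glucose mice. Galactose mouse 4 had 57990 CPM in 8 genes of pancreatic acinar cells, against at most 2309 CPM in any other library, so comparisons of Zg16 with galactose mice are given with and without it. Other cell types moved with diet as well, with 8 of 8 smooth muscle markers lower and 4 of 5 tested plasma cell markers higher in lactose than in galactose mice by edgeR's quasi-likelihood test with Benjamini-Hochberg adjustment over all tested genes, the test used throughout. Of all tested genes 15% were lower and 15.9% higher in this comparison.

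All 9 genes were measured deeply, Spdef least, with 83 to 189 counts per library. Levels of different genes can be set side by side only per length of transcript, and in CPM per kilobase of merged exons Zg16 stood first with a mean of 1713 ± 425 (SD, n = 39) and Tff3 next with 976 ± 192. Fcgbp followed at 290 ± 62.6 CPM per kilobase, Clca1 at 165 ± 34.9 and Spink4 at 119 ± 41.9. Agr2 at 62.1 ± 13.7 and Muc2 at 61.6 ± 14.9 CPM per kilobase differed by far less than their spread over mice. Ccl6 had 29.2 ± 7.88 CPM per kilobase and the transcription factor Spdef 2.84 ± 0.443. Of neighbours in this order, the ranges over mice overlapped for Zg16 and Tff3, for Fcgbp and Clca1, for Clca1 and Spink4, for Spink4 and Agr2, for Agr2 and Muc2 and for Muc2 and Ccl6. Tff3 and Fcgbp did not overlap, and neither did Ccl6 and Spdef.

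Summed, the goblet cell genes took a similar share of the raw gene counts on each diet. They held 0.689 ± 0.0889% of gene counts in lactose mice, 0.700 ± 0.177% in galactose mice and 0.689 ± 0.0964% in glucose mice (SD, n = 13 each). The galactose mice spread most, between 0.369% and 0.936%. With the TMM scaling used for CPM the sum averaged 7272 ± 771 CPM on lactose, 6689 ± 1574 CPM on galactose and 6777 ± 913 CPM on glucose, a difference that was not tested. Fcgbp and Zg16, with means of 3046 and 2153 CPM over all mice, make up most of either sum. Among the members Tff3 alone passed the test in any comparison of 2 diets, and Muc2 and Zg16 lay just short of it with opposite signs. Both passed between lactose and galactose with triplets of neighbouring title numbers as a block, as given below.

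**Figure D1:**
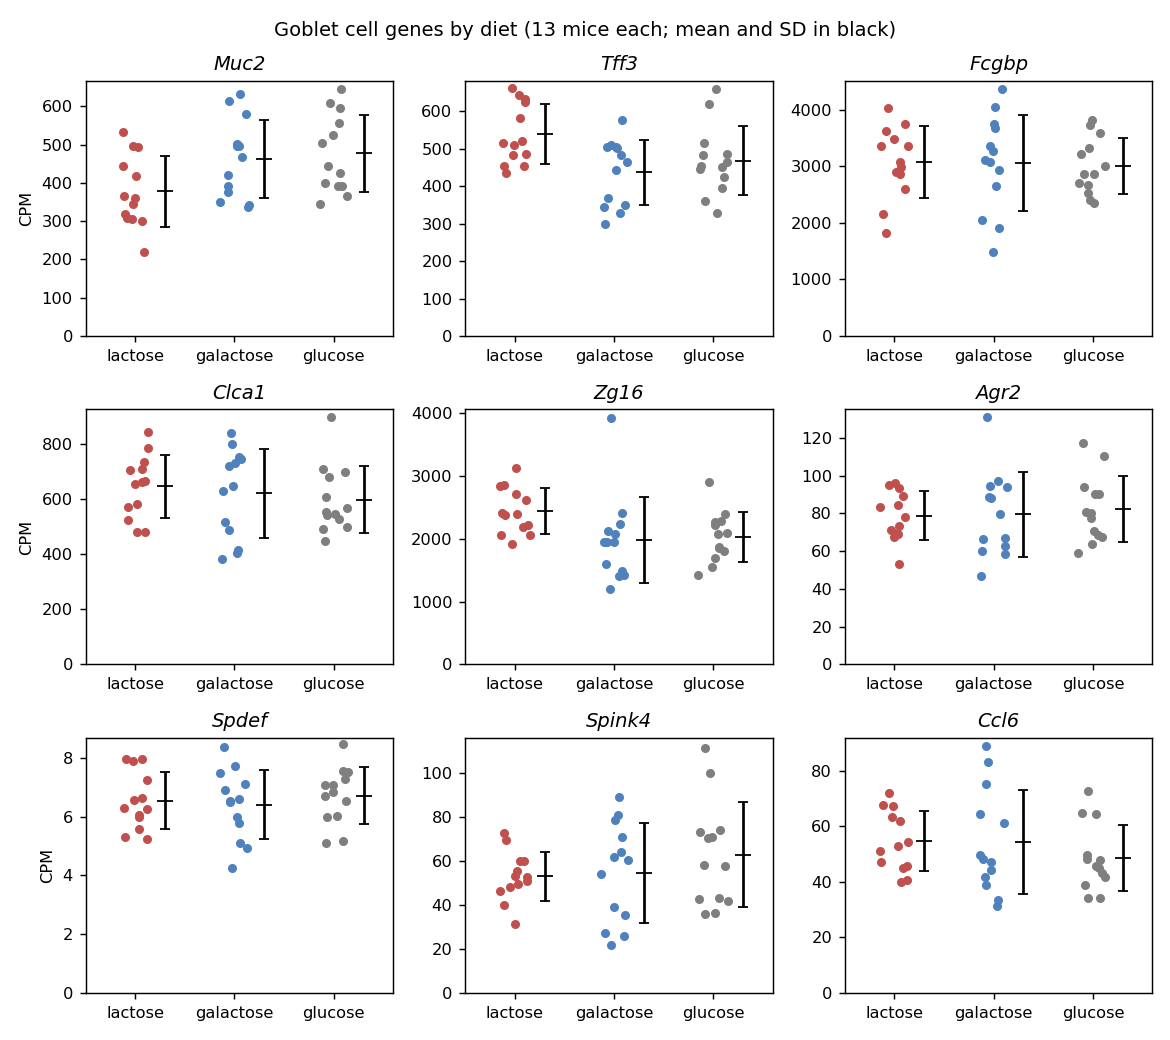
Level of the 9 goblet cell genes in CPM (y axis, from 0) for each mouse on the lactose, galactose and glucose diets (13 points each, mean and SD in black). The diets overlap for every gene; lactose mice sit lowest for Muc2 (mean 378 CPM) and highest for Tff3 (mean 539 CPM), and 1 galactose mouse stands alone at 3923 CPM of Zg16.

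Between lactose and galactose 1 of the 9 members passed adjusted p 0.05, against 30.9% of all tested genes (15.9% higher and 15% lower), and 3 had an unadjusted p below 0.05, against 40.9% of all genes. Between lactose and glucose 0 of 9 passed, against 15.6% of all tested genes (8.73% higher and 6.84% lower), and 2, Muc2 and Zg16, had an unadjusted p below 0.05, against 31.7%. Between galactose and glucose 0 of 9 passed, against 4.07% of all tested genes (1.21% higher and 2.87% lower), and 0 had an unadjusted p below 0.05, against 20.6%. DESeq2 and limma voom also called 0 members in each of these comparisons with glucose. The test of any difference among the 3 diets called 0 of 9 members, against 30.3% of all tested genes, with Tff3 nearest at adjusted p 0.0503 in edgeR. Here 3 members, Tff3, Muc2 and Zg16, had an unadjusted p below 0.05, DESeq2 called 1 member and limma voom 0. The median log2 fold change of the 9 members was 0.011 between lactose and galactose, 0.033 between lactose and glucose and −0.046 between galactose and glucose, beside −0.021, −0.026 and −0.0031 over all tested genes. The 3 comparisons share their mice in pairs and are not independent.

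**Figure D2:**
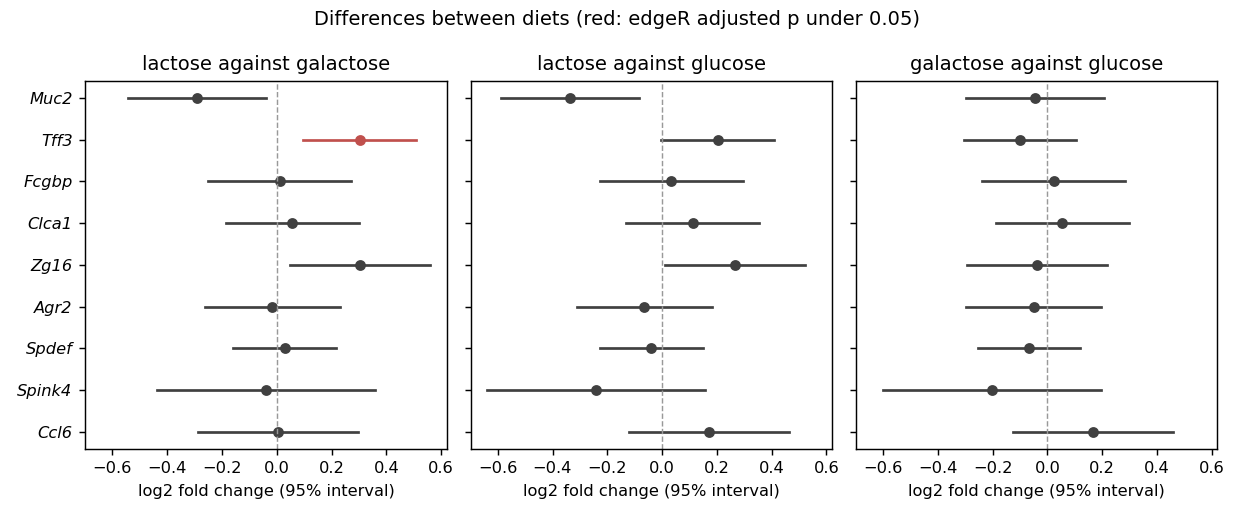
Log2 fold change (x axis) of each goblet cell gene with its 95% interval for lactose against galactose, lactose against glucose and galactose against glucose (13 mice per diet). Tff3 in lactose against galactose, in red at 0.30, is the point past adjusted p 0.05; the intervals of Muc2 lie below 0 and those of Zg16 above 0 in both comparisons of the lactose diet, and that of Tff3 reaches just below 0 against glucose.

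Muc2, the mucin itself, had its lowest mean on lactose. Its level was 221, 361 and 533 CPM (lowest, median and highest mouse) on lactose, 338, 467 and 633 CPM on galactose and 344, 443 and 645 CPM on glucose. The diets overlapped, with 8 of the 13 lactose mice inside the range of the glucose mice and the other 5 below it. The mean was 378 ± 92.9 CPM on lactose and 477 ± 101 CPM on glucose (SD, n = 13 each), a log2 fold change of −0.34 (SE 0.12, adjusted p 0.0599 by edgeR's quasi-likelihood test), with 10 of 13 lactose mice below the glucose mean. Against galactose mice, at 462 ± 103 CPM, the log2 fold change was −0.29 (SE 0.12, adjusted p 0.0730), again with 10 of 13 lactose mice below the mean. Neither passed the threshold, and in bulk tissue fewer goblet cells and less Muc2 RNA per cell cannot be told apart. With library totals in place of TMM factors Muc2 passed in both comparisons, at −0.44 (adjusted p 0.0188) against glucose and −0.43 (adjusted p 0.0101) against galactose. That scaling also moved the median of all tested genes to −0.13 against glucose and −0.16 against galactose. Leaving out lactose mouse 1, 4, 5 or 6 also brought Muc2 past the threshold in both comparisons, as did leaving out galactose mouse 3, 8 or 9 against galactose and glucose mouse 2, 3 or 8 against glucose, with log2 fold changes of −0.39 to −0.32 in these fits. In each comparison only 7 of the 39 fits without 1 library passed. The highest adjusted p among the 39 was 0.107 against glucose and 0.132 against galactose by edgeR. With triplets of neighbouring title numbers as a block Muc2 passed as well (adjusted p 0.00266 against glucose and 0.00354 against galactose by edgeR). The lactose mouse was above the glucose mouse in 0 of 13 triplets and above the galactose mouse in 2. The labels do not say that a triplet shares anything. Of 16 alternative settings, those above among them, 3 passed against glucose and 2 against galactose. Over these settings the log2 fold change ran from −0.44 to −0.23 against glucose and from −0.43 to −0.14 against galactose.

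Fcgbp, the partner of Muc2 in the gel, had nearly the same mean on each diet. Fcgbp had 1826, 3073 and 4038 CPM in the lowest, median and highest lactose mouse, 1489, 3114 and 4365 CPM in galactose mice and 2353, 2873 and 3821 CPM in glucose mice. The range of glucose mice lay within that of lactose mice, and both within that of galactose mice. The log2 fold change was 0.011 against galactose (95% interval −0.25 to 0.27) and 0.033 against glucose (−0.23 to 0.29). Clca1, the protease that opens the Muc2 network, had 479.5, 661 and 844 CPM in lactose mice, 383, 648 and 841 CPM in galactose mice and 447, 555 and 900.2 CPM in glucose mice. Its groups overlapped throughout, and its log2 fold change was 0.057 against galactose (−0.19 to 0.30) and 0.11 against glucose (−0.13 to 0.35).

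Tff3 was higher on lactose than on galactose. It had 436, 515 and 663 CPM in the lowest, median and highest lactose mouse, 300.3, 463 and 575 CPM in galactose mice and 329, 454 and 659 CPM in glucose mice. Of the 13 lactose mice 5 lay above the highest galactose mouse and the other 8 within the galactose range. The mean was 539 ± 80.1 CPM on lactose and 437 ± 87.8 CPM on galactose (SD, n = 13 each), a log2 fold change of 0.30 (SE 0.10, adjusted p 0.0211 by edgeR's quasi-likelihood test), with 12 of 13 lactose mice above the galactose mean. Against glucose mice, at 468 ± 91.9 CPM, the log2 fold change was 0.20 (SE 0.10, adjusted p 0.163), with 10 of 13 lactose mice above the mean. The call against galactose was lost with library totals (0.16, adjusted p 0.204), with limma voom (0.23, adjusted p 0.0607) and without galactose mouse 1 (0.26, adjusted p 0.0532). Plasma cell markers moved the same way: the 6 listed genes summed to 1014 to 3448 CPM in lactose mice and 599.8 to 1602 CPM in galactose mice, with Mzb1 at no more than 11 counts in any library. Their part in the Tff3 difference was not tested.

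Zg16 ran in step with Tff3. It had 1912, 2394 and 3129.8 CPM in the lowest, median and highest lactose mouse, 1201, 1948 and 3923 CPM in galactose mice and 1422, 2072 and 2905 CPM in glucose mice. Every lactose mouse lay within the galactose range, whose top is galactose mouse 4 alone, and 12 of 13 lactose mice were above the galactose mean. The log2 fold change was 0.30 against galactose (SE 0.13, adjusted p 0.0633 by edgeR's quasi-likelihood test) and 0.27 against glucose (SE 0.13, adjusted p 0.142), short of the threshold. Zg16 is also a protein of pancreatic zymogen granules, from which it takes its name, and galactose mouse 4 is the library with high pancreatic genes. Without that library the difference from galactose passed the threshold, at 0.42 (adjusted p 0.0033), and it passed narrowly without lactose mouse 13 (0.33, adjusted p 0.0494). It also passed with triplets of neighbouring title numbers as a block (adjusted p 0.0116 by edgeR). Of the 39 fits without 1 library 2 passed against galactose, and of 16 alternative settings 1 passed.

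The genes that make and direct the secretory machinery did not differ detectably. Agr2 had 53.1, 77.9 and 96.2 CPM in the lowest, median and highest lactose mouse, 46.6, 79.6 and 131 CPM in galactose mice and 59.1, 80.0 and 117 CPM in glucose mice. Spdef had 5.25, 6.28 and 7.97 CPM in lactose mice, 4.25, 6.52 and 8.38 CPM in galactose mice and 5.10, 6.84 and 8.47 CPM in glucose mice. For both genes every lactose mouse lay within the galactose range. The log2 fold change of Agr2 was −0.016 against galactose (95% interval −0.26 to 0.23) and −0.065 against glucose (−0.31 to 0.18), and that of Spdef was 0.029 (−0.16 to 0.22) and −0.039 (−0.23 to 0.15). The intervals of Spdef were the narrowest among the members.

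Spink4 and Ccl6 were the most variable members. Spink4 had a biological coefficient of variation of 34.6%, higher than that of 88.9% of tested genes, against 15.3% for Spdef and a median of 17.1% over all tested genes. Its level was 31.4, 52.7 and 72.4 CPM in the lowest, median and highest lactose mouse, 21.6, 60.2 and 89.2 CPM in galactose mice and 35.7, 58.0 and 111 CPM in glucose mice. Lactose mice were the most alike, with an SD of 11.1 CPM, beside 22.7 CPM in galactose mice and 23.9 CPM in glucose mice. The log2 fold change of Spink4 was −0.040 against galactose (95% interval −0.44 to 0.36) and −0.24 against glucose (−0.64 to 0.16). Ccl6 had 40.0, 52.8 and 72.0 CPM in lactose mice, 31.2, 48.4 and 88.9 CPM in galactose mice and 34.3, 45.7 and 72.8 CPM in glucose mice. Its log2 fold change was 0.0046 against galactose (−0.29 to 0.30) and 0.17 against glucose (−0.12 to 0.46), with overlapping groups.

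Between galactose and glucose every member overlapped and none came near the threshold. The log2 fold changes lay between −0.20 for Spink4 (95% interval −0.60 to 0.20) and 0.17 for Ccl6 (−0.12 to 0.46). For the mucus proteins they were −0.046 for Muc2 (−0.30 to 0.21), 0.022 for Fcgbp (−0.24 to 0.28), 0.054 for Clca1 (−0.19 to 0.30), −0.038 for Zg16 (−0.29 to 0.22) and −0.10 for Tff3 (−0.31 to 0.11). Without galactose mouse 4 the value of Zg16 was −0.16 (adjusted p 0.421 in edgeR). Adjusted p values ranged from 0.539 for Ccl6 to 0.943 for Fcgbp in edgeR's quasi-likelihood test.

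The estimates for Muc2 on the one side and for Tff3 and Zg16 on the other had opposite signs in both comparisons of the lactose diet. The level of a member relative to Muc2 is a ratio within a library and does not depend on how libraries were scaled. It is described here without a test. For all 8 other members the mean log2 ratio to Muc2 was higher on lactose than on either other diet, by 0.32 to 0.65 against galactose and by 0.17 to 0.62 against glucose, so it is not particular to any of them. Tff3 stood at a log2 ratio to Muc2 of −0.23, 0.52 and 1.54 in the lowest, median and highest lactose mouse, −0.62, −0.10 and 0.36 in galactose mice and −0.89, 0.12 and 0.49 in glucose mice. Of the lactose mice 8 lay above every galactose mouse and 7 above every glucose mouse. The mean log2 ratio was 0.54 ± 0.51 on lactose, −0.077 ± 0.29 on galactose and −0.022 ± 0.44 on glucose (SD, n = 13 each). For Zg16 the mean log2 ratio to Muc2 was 2.72 ± 0.50 on lactose, 2.07 ± 0.43 on galactose and 2.10 ± 0.45 on glucose. Without galactose mouse 4, the highest of its diet at 3.22, the galactose mean was 1.97 ± 0.26 (SD, n = 12), and 9 lactose mice rather than 1 lay above every galactose mouse. The ratio of Fcgbp to Muc2 varied less between mice, with mean log2 values of 3.03 ± 0.20 on lactose, 2.70 ± 0.27 on galactose and 2.67 ± 0.23 on glucose, with 12 of 13 lactose mice above the mean of each other diet. A ratio shows unequal levels of both genes and not which of them differed.

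**Figure D3:**
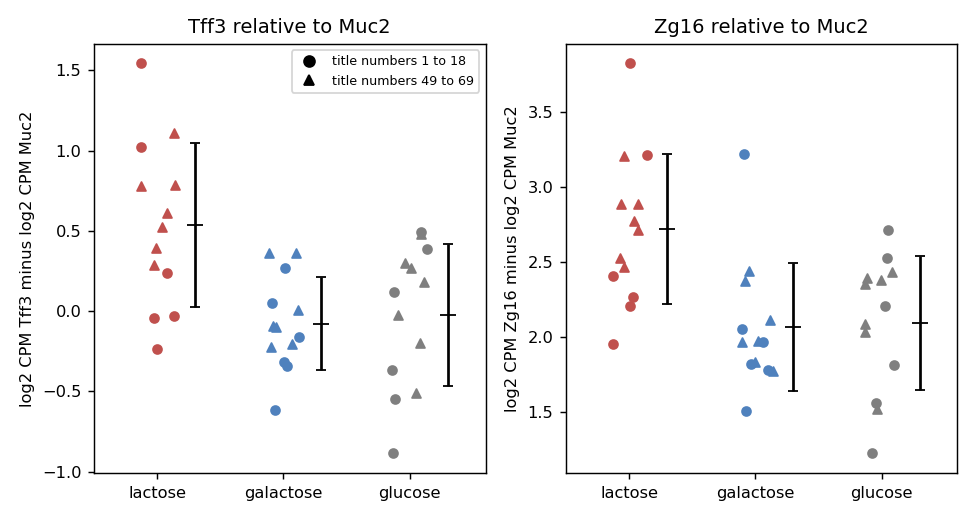
Log2 CPM of Tff3 (left) and Zg16 (right) minus log2 CPM of Muc2 in each mouse (y axes) by diet, with mean and SD in black. Circles are mice with title numbers 1 to 18 and triangles those with 49 to 69; the lactose mice average 0.54 for Tff3, against −0.077 on galactose and −0.022 on glucose, and both runs of title numbers show it.

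The titles number the mice in 2 runs, 1 to 18 and 49 to 69, which the labels do not call batches, with 6 and 7 mice per diet. Within the first run the mean log2 ratio of Tff3 to Muc2 was 0.42 on lactose, −0.19 on galactose and −0.13 on glucose, and within the second it was 0.64 on lactose, 0.016 on galactose and 0.073 on glucose. The log2 fold change of Tff3 between lactose and galactose was 0.36 in the first run (adjusted p 0.177 by edgeR's quasi-likelihood test) and 0.24 in the second (adjusted p 0.194), so the call rests on both runs together. In edgeR an interaction of diet and run passed the threshold for 0 genes in each comparison, and 0 members had an unadjusted p below 0.05. Between lactose and galactose the members with the most different changes were Clca1 and Agr2, whose log2 fold changes were lower by 0.48 and 0.43 in the second run (interactions of −0.48 and −0.43, adjusted p 0.796 and 0.856). With diet as a term 119 genes (0.812% of those tested) differed between the runs, none of them a member, and Spink4 came nearest at 0.34 higher in the second run (adjusted p 0.332).

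The members differ in length, and the fold changes of all genes varied with length. Tff3 has 493 bases of merged exons and Zg16 1257, against 7127 for Muc2 and 10497 for Fcgbp. Between lactose and galactose the median log2 fold change was 0.15 over 998 genes of up to 1000 bases and −0.10 over 2334 genes longer than 8000 bases (Spearman's rho −0.244 across 14476 genes, which are not independent replicates). Between galactose and glucose it was −0.13 for the short and 0.086 for the long genes, and between lactose and glucose 0.026 and −0.022. Tff3 at 0.30 and Muc2 at −0.29 both lay beyond the median of their length class, at 0.15 and −0.055, while Fcgbp at 0.011 lay above its class and Spink4 at −0.040, the shortest member with 477 bases, lay below it. With a score of short minus long genes as a term, chosen after the data were seen, Tff3 was at 0.18 (adjusted p 0.206) against galactose and Muc2 at −0.14 (adjusted p 0.418) against galactose and −0.31 (adjusted p 0.0446) against glucose. Over the 39 mice with diet means removed this score went with lower Muc2 (r −0.49, rho −0.43, adjusted p 0.00945 and 0.0351 over 9 genes by permutation) and lower Fcgbp (r −0.44, rho −0.47, adjusted p 0.00945 and 0.0199). The correlations of Tff3, Spdef and Spink4 were 0.37 to 0.41. Their r passed (adjusted p 0.0261, 0.0261 and 0.00945 by permutation), and their rho did not (adjusted p 0.0655 each). Without the 2 mice farthest in score their r was 0.23, 0.31 and 0.32. Without the 2 mice farthest in score r was −0.45 for Muc2 and −0.41 for Fcgbp. It was −0.63 and −0.68 in the first run but −0.12 and −0.21 in the second.

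**Figure D4:**
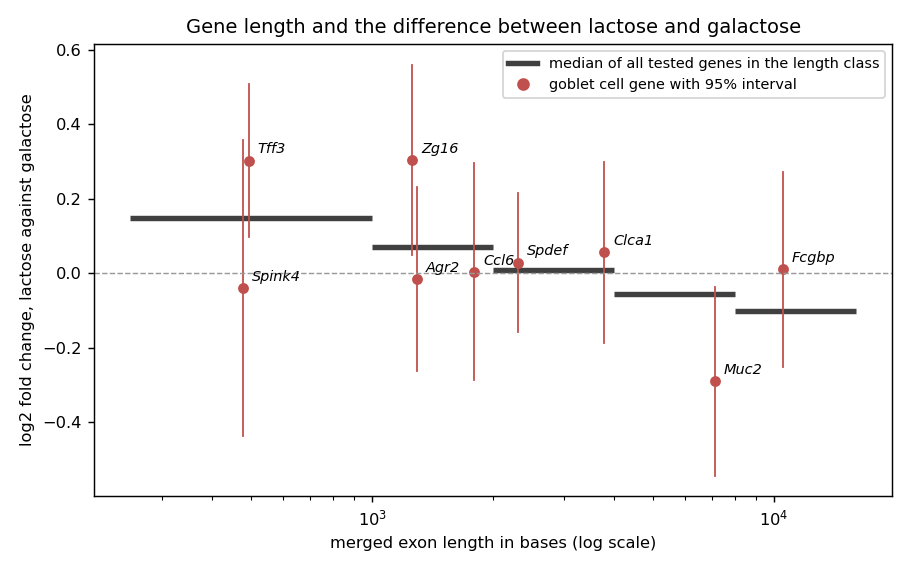
Log2 fold change between lactose and galactose (y axis) against merged exon length (x axis, log scale) for the 9 goblet cell genes, in red with 95% intervals. Grey bars are medians of all tested genes in 5 length classes, the outer bars standing for all shorter or longer genes; they run between 0.15 for the shortest class and −0.10 for the longest.

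The members fell into groups by how they varied between mice. With the diet mean removed, all 36 pairs had a positive Pearson correlation of log2 CPM over the 39 mice, with a median of 0.35, and 11 pairs passed adjusted p 0.05 for both r and Spearman's rho (two-sided permutation tests with 100000 resamples, adjusted over the 36 pairs). Within single diets every pair was positive among galactose mice, but some were negative among lactose or glucose mice. Tff3 and Fcgbp had r 0.82 on galactose, −0.39 on lactose and 0.27 on glucose, and Muc2 and Zg16 had 0.40, −0.47 and −0.18. In the same order Muc2 and Fcgbp had 0.81, 0.83 and 0.66, and Tff3 and Zg16 0.83, 0.94 and 0.96. These differences between diets were not tested. Tff3 and Zg16 were the closest pair, with r 0.88 and rho 0.95 (adjusted p 6e-05 and 7.2e-05, from a raw p of 1e-05, the smallest that the permutations can give). The correlation was 0.85 without the 2 mice farthest from the median of Tff3, 0.88 in the first run and 0.95 in the second. Muc2 and Fcgbp, whose promoters are shown above, had r 0.76 and rho 0.80 with the same adjusted p values, r 0.75 without the 2 farthest mice, 0.86 in the first run and 0.70 in the second.

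Clca1 sat between these pairs. It had r 0.71 with Fcgbp (rho 0.72, adjusted p 6e-05 and 7.2e-05 by permutation), 0.70 with Tff3 (rho 0.69, adjusted p 6e-05 and 0.00012) and 0.61 with Zg16 (rho 0.65, adjusted p 0.00103 and 0.000315), with r of 0.66, 0.67 and 0.52 without the 2 farthest mice. In the first and second runs these were 0.70 and 0.74 with Fcgbp, 0.54 and 0.87 with Tff3, and 0.50 and 0.81 with Zg16. Among lactose mice alone r was 0.50 with Fcgbp, 0.20 with Tff3 and 0.33 with Zg16. These values were 0.85, 0.92 and 0.69 among galactose mice and 0.64, 0.74 and 0.64 among glucose mice, a difference that was not tested. Another group joined Agr2, Spdef and Spink4. Agr2 and Spink4 had r 0.78 (rho 0.77), Spdef and Spink4 0.69 (rho 0.70) and Agr2 and Spdef 0.62 (rho 0.65), with adjusted permutation p values of 6e-05, 6e-05 and 0.000463 for r and 7.2e-05, 7.2e-05 and 0.000309 for rho. Without the 2 farthest mice r was 0.73, 0.63 and 0.65, in the first run 0.87, 0.59 and 0.51, and in the second 0.72, 0.76 and 0.70. By diet it was 0.43, 0.46 and 0.33 on lactose, 0.91, 0.72 and 0.68 on galactose and 0.75, 0.81 and 0.75 on glucose.

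Muc2 and Tff3, both classical goblet cell markers, had r 0.0031 and rho 0.026 (adjusted permutation p 0.986 and 0.877), with r 0.12 without the 2 farthest mice. This value hides opposite signs: r was −0.26 in the first run and 0.43 in the second, and −0.54 among lactose mice, 0.57 among galactose mice and −0.16 among glucose mice. The difference between those correlations was not tested. With the mean of the other 8 members Muc2 had the lowest correlation, 0.37, and Clca1 the highest, 0.75.

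**Figure D5:**
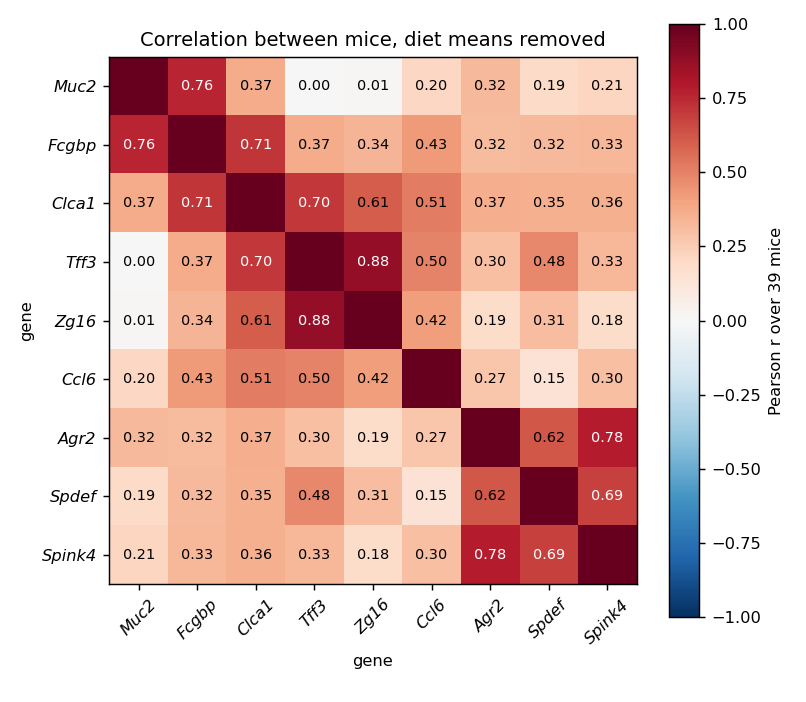
Pearson correlation of log2 CPM between each pair of goblet cell genes over 39 mice with diet means removed (colour and printed value, from −1 to 1). Blocks stand out for Muc2 with Fcgbp (0.76), Tff3 with Zg16 (0.88), and Agr2, Spdef and Spink4 (0.62 to 0.78), while Muc2 and Tff3 are at 0.00.

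Agr2 and Spink4 moved with crypt genes, and Spdef with the Paneth list. Over 90 correlations of the 9 members with the scores of 10 marker lists, Spink4 had r 0.84 with the Paneth cell list (rho 0.82), 0.76 with the stem cell list (rho 0.80) and 0.72 with the cell cycle list (rho 0.76), each at adjusted permutation p 3e-04 for r and 0.000225 for rho. It had r −0.63 with the enterocyte list (rho −0.74, adjusted p 0.00054 and 0.000225). Agr2 had r 0.65 with the Paneth list (rho 0.65, adjusted p 0.0009 and 0.00112) and 0.67 with the stem cell list (rho 0.70, adjusted p 0.00054 and 3e-04). Spdef had r 0.53 with the Paneth list (rho 0.56, adjusted p 0.00907 and 0.00412), while its r of 0.43 with the stem cell and the cell cycle lists did not pass (adjusted p 0.0541 each; rho 0.50 and 0.55, adjusted p 0.0121 and 0.00412). In the first and second runs r with the Paneth list was 0.88 and 0.77 for Spink4, 0.71 and 0.59 for Agr2 and 0.42 and 0.61 for Spdef, and without the 2 farthest mice it was 0.80, 0.60 and 0.60. The Paneth list held 8 genes, among them Lyz1 and Mmp7, and summed to 93.2 to 1174 CPM in lactose mice, 54.5 to 2796 CPM in galactose mice and 145 to 3585 CPM in glucose mice. The highest scrapings on lactose were thus well below those on the other diets, and the same holds for Spink4, whose highest lactose mouse had 72.4 CPM. With a crypt score as a term, chosen after the data were seen, Spink4 differed between lactose and galactose by 0.29 (adjusted p 0.068), of opposite sign to the value of −0.040 without that term.

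Tff3, Clca1 and Spink4 went with the plasma cell list, at r 0.56 (rho 0.54), 0.53 (rho 0.55) and 0.59 (rho 0.56), with adjusted permutation p values for r of 0.00252, 0.00735 and 0.0022 and for rho of 0.00512, 0.0054 and 0.00412. In the first and second runs r was 0.63 and 0.47 for Tff3, 0.44 and 0.63 for Clca1 and 0.59 and 0.55 for Spink4, and without the 2 farthest mice 0.55, 0.60 and 0.59. For Zg16 the r of 0.40 did not pass (adjusted permutation p 0.0651), while the rho of 0.49 did (adjusted p 0.0168). Its r was 0.43 in each run. Ccl6 went with marker lists of position along the gut, which was not itself measured in each mouse. The list of genes higher towards the ileum rests on 4 tested genes, without Fabp6, which had at most 5 counts in any library. Ccl6 had r 0.64 with this distal list (rho 0.63, adjusted p 0.0009 and 0.00103) and −0.48 with a list of genes higher in the duodenum (rho −0.45, adjusted p 0.0177 and 0.0254). With the distal list r was 0.70 in the first run, 0.63 in the second and 0.60 without the 2 farthest mice, and with the proximal list −0.61, −0.46 and −0.39. Spdef went the other way, with r 0.45 with the proximal list (rho 0.44, adjusted p 0.0277 and 0.0302), 0.62 in the first run, 0.36 in the second and 0.45 without the 2 farthest mice. The correlation of Ccl6 with macrophage markers was 0.0066 and with eosinophil markers 0.030 (adjusted p 0.969 and 0.905), and the eosinophil marker Epx had no count in any library. The distal minus proximal score averaged 0.833 on lactose, −0.126 on galactose and −0.707 on glucose, and with it as a term, chosen after the data were seen, Ccl6 was at −0.078 between lactose and glucose (adjusted p 0.776).

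Among the 11218 genes whose mean log2 CPM was 1 or more, those most like the mean of the 9 members over 39 mice were Hepacam2 (r 0.83), Ttc39a (0.82), Galnt12 (0.79), Rep15 (0.79), Capn9 (0.79), Bcas1 (0.78), Rab27a (0.78), Txndc5 (0.77), Tpsg1 (0.77) and Rab15 (0.76). The values are a description with diet means removed, and these libraries share depth and tissue makeup. Capn9, a calpain protease of the gut lining, was higher on lactose than on galactose, at 15.2 ± 1.62 CPM on lactose and 11.7 ± 3.08 CPM on galactose (log2 fold change 0.38, SE 0.11, adjusted p 0.00794 by edgeR's quasi-likelihood test, 13 of 13 mice). It was also higher than on glucose (0.31, adjusted p 0.0493). Rep15, a binding partner of the vesicle protein Rab15, was higher on lactose than on galactose by 0.26 (SE 0.10, adjusted p 0.0490), and Txndc5, a disulfide isomerase, by 0.24 (SE 0.07, adjusted p 0.00525). Without galactose mouse 4 Rep15 did not pass (0.24, adjusted p 0.0827), and Capn9 passed against galactose (0.38, adjusted p 0.0126) but not against glucose (0.30, adjusted p 0.0620). The other 7 genes had log2 fold changes of −0.017 to 0.14 between lactose and galactose and did not pass.

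Genes that act around the members were taken from 6 lists. Of 16 factors and Notch genes of secretory differentiation, all tested, 5 were lower and 0 higher on lactose than on galactose (31.2%, near the 30.9% of all genes). Of these 16 genes 3 were lower on lactose than on glucose (18.8%, against 15.6% of all genes) and 0 differed between galactose and glucose (against 4.07%). Their median log2 fold change between lactose and galactose was −0.11, beside −0.021 over all tested genes. Elf3, an epithelial ETS factor, averaged 119.9 ± 41.4 CPM on lactose, 194 ± 23.5 CPM on galactose and 189 ± 46.3 CPM on glucose (SD, n = 13 each), a log2 fold change of −0.69 (SE 0.13, adjusted p 0.000113 by edgeR) against galactose and −0.66 (SE 0.13, adjusted p 0.00078) against glucose. The receptors Notch1 and Notch2 fell by 0.57 and 0.62 on the log2 scale against galactose (adjusted p 8.14e-05 and 0.00027), with 13 of 13 lactose mice below the galactose mean for each, and by 0.35 and 0.42 against glucose (adjusted p 0.0197 and 0.021). The ligand Dll1 fell by 0.21 against galactose (adjusted p 0.0194). Atoh1, the factor that starts the secretory lineage, had 9.20 ± 1.86 CPM on lactose, 8.31 ± 1.98 CPM on galactose and 7.86 ± 1.82 CPM on glucose and did not pass (0.15 against galactose, adjusted p 0.371, and 0.23 against glucose, adjusted p 0.189). The 8 smooth muscle markers were lower on lactose than on galactose too, as given above, as were 3 of 5 tested fibroblast markers, the collagen genes Col1a1, Col1a2 and Col3a1. Their part in the lower Notch values was not tested.

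The next list held the enzymes that build the O-glycans of mucins. Of 25 tested genes, 8 were lower and 2 higher on lactose than on galactose (40% against the 30.9% of all genes). On lactose against glucose 4 were lower and 3 higher (28%, against 15.6% of all genes). On galactose against glucose 1 was lower and 2 higher (12%, against 4.07%). Galnt3, which adds the first sugar of the chain, averaged 18.2 ± 2.09 CPM on lactose, 25.6 ± 2.21 CPM on galactose and 23.5 ± 3.43 CPM on glucose. Its log2 fold change was −0.49 (SE 0.07, adjusted p 4.73e-07 by edgeR, 13 of 13 mice) against galactose and −0.37 (SE 0.07, adjusted p 0.000191) against glucose. The sialyltransferase St3gal6 went the other way, at 92.9 ± 10.5 CPM on lactose, 71.8 ± 5.66 CPM on galactose and 81.03 ± 6.54 CPM on glucose, with 0.37 (SE 0.05, adjusted p 1.26e-06) against galactose and 0.20 (SE 0.05, adjusted p 0.00863) against glucose. Gcnt4, a branching enzyme, was at −0.43 (SE 0.08, adjusted p 5.39e-05) and Galnt2, another initiating enzyme, at 0.29 (SE 0.06, adjusted p 0.000547) against galactose. Against glucose the sialyltransferase St3gal1 was at −0.43 (adjusted p 0.00388) and Galnt6 at −0.23 (adjusted p 0.0118). On galactose against glucose the sialyltransferase St6galnac2 was at −0.22 (adjusted p 0.0135), Galnt7 at 0.30 (adjusted p 0.0219) and Galnt1 at 0.17 (adjusted p 0.038). Many of these enzymes are also made by enterocytes.

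Of 19 tested folding genes of the endoplasmic reticulum, which mucin synthesis loads heavily, 3 were higher and 0 lower on lactose than on galactose (15.8%, below the 30.9% of all genes). On lactose 2 were higher than on glucose (10.5%, against 15.6% of all genes), and 0 differed between galactose and glucose (against 4.07%). P4hb, a disulfide isomerase, averaged 4983 ± 558 CPM on lactose, 3941 ± 305 CPM on galactose and 4323 ± 477 CPM on glucose, with a log2 fold change of 0.34 (SE 0.06, adjusted p 6.79e-05 by edgeR) against galactose and 0.21 (SE 0.06, adjusted p 0.0204) against glucose. Dnajb9, a co-chaperone, was at 0.26 (adjusted p 0.00549) and 0.37 (adjusted p 0.000603) in the same comparisons. Of 12 genes of mucus release and of the salts and protease that unfold mucus, 2 were higher and 2 lower on lactose than on galactose (33.3%, near the 30.9% of all genes). The chloride and bicarbonate exchanger Slc26a3 was at 0.33 (adjusted p 0.00275) and the vesicle fusion protein Vamp8 at 0.25 (adjusted p 0.00623), while the chloride channel Cftr was at −0.45 (adjusted p 0.0246). Against glucose Slc26a3 was at 0.27 (adjusted p 0.0264) and Mep1b, a subunit of the meprin that cuts Muc2, at 0.35 (adjusted p 0.0141), and the other 10 did not pass. Of the 12, 16.7% thus passed between lactose and glucose, against 15.6% of all genes, and none between galactose and glucose, against 4.07%. For the folding and the release genes alike, the cell types behind these values cannot be told apart in bulk tissue.

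Cytokine signals to goblet cells, mainly but not only those of type 2 immunity, were sparse. Of 13 listed genes 6 were tested, and Il13, Il4, Il5 and Il22 had at most 1 to 3 counts in any library. Of these 6 genes 4 were lower on lactose than on galactose: the receptor chains Il4ra (−0.35, adjusted p 0.00199 by edgeR), Il13ra1 (−0.28, adjusted p 0.0251) and Il22ra1 (−0.31, adjusted p 0.0449) and the alarmin Il33 (−0.55, adjusted p 0.039). Il33 averaged 34.3 ± 9.88 CPM on lactose, 50.4 ± 18.7 CPM on galactose and 30.9 ± 16.7 CPM on glucose and was higher on galactose than on glucose by 0.71 (SE 0.21, adjusted p 0.0435). It was the 1 of the 6 that passed there (16.7%, against 4.07% of all genes). None of the 6 passed between lactose and glucose, against 15.6% of all genes. Over all tested genes 15% were lower on lactose than on galactose. Of 11 macrophage markers 7 were lower and 1 higher on lactose than on galactose, among them Csf1r at −0.54 (adjusted p 2.73e-05) and Cd68 at −0.41 (adjusted p 0.00446), and 3 collagen genes were lower as given above. Their part in the lower values of the 4 signal genes was not tested. Among 15 tested genes of other goblet cell products, 3 were higher and 1 lower on lactose than on galactose (26.7%, below the 30.9% of all genes). Capn9 and Rep15 are given above, and Guca2a, the peptide guanylin, was at 0.88 (SE 0.29, adjusted p 0.0198). The lower gene was Klk1, a kallikrein that the pancreas also makes and that belongs to a family of near-identical copies, at −2.24 (adjusted p 0.00165). Klk1 had 862 CPM in galactose mouse 4, against at most 54.7 CPM in any other library, and it differed between galactose and glucose by 2.19 (adjusted p 0.0137). Without that library neither difference passed, at −0.22 (adjusted p 0.377) between lactose and galactose and 0.15 (adjusted p 0.684) between galactose and glucose, and the other 12 galactose mice averaged 22.6 ± 10.9 CPM, against 20.4 ± 5.94 CPM on glucose. Without it the antimicrobial ribonuclease Ang4 was the 1 lower gene of this list, at −1.12 (adjusted p 0.0420), against −1.05 (adjusted p 0.050002) with it. Retnlb, a goblet cell resistin-like peptide, had at most 3 counts in any library, as did the sialyltransferase St6galnac1.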

How the data were processed

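For each mouse the authors deposited raw counts, per the labels, over 56980 genes with 5 summary lines. Per the submitters' processing notes FastQC, STAR, HTSeq and GRCm39 were used, and versions, strand setting and annotation release are not given in the sources used here. Without a strand setting, reads of overlapping genes cannot be told apart. Identifiers were matched to symbols with a GRCm38 annotation (52073 matched), which also gave merged exon lengths. Summary lines, 10.1% to 15.7% of each library, stayed out of library sizes. Counts were analysed with edgeR 4.0.16 in R 4.3.3, with filterByExpr by diet, TMM scaling and quasi-likelihood F tests of 1 model with a mean per diet over all 39 libraries. Tests were two-sided, adjusted by Benjamini-Hochberg over 14658 genes, with a threshold of 0.05. The standard error is the absolute log2 fold change over the square root of F, and 95% intervals use the t distribution with the test's degrees of freedom. CPM used TMM factors, and log2 CPM a prior count of 2. Correlations used diet-centred log2 CPM and 100000 permutations. A marker score is the mean of scaled log2 CPM. The edgeR and correlation steps were tested on simulated data. limma 3.58.1, DESeq2 1.42.0 and other settings were alternatives.

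All 9 members are named. Up to 4 genes past the threshold per surrounding list and comparison are named, smallest p first, except 1 that is not reported here; Atoh1, Capn9, Rep15, Txndc5, Klk1, Mzb1, Epx, Ang4, Csf1r, Cd68, 3 collagen genes, the untested cytokines, Retnlb and St6galnac1 stand beside them for their part in a result. The members and lists were chosen with earlier results of these data known. The labels name separate mice as replicates; 2 libraries of a diet differed by a chi-square of at least 9.57 per degree of freedom, so none was taken as a repeat of another.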

Additional observations from a re-analysis of the deposited data

How the results depend on the processing

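At 13 mice per diet the standard errors of the members were 0.09 to 0.20 on the log2 scale with at least 19685385 counts per library. Of the alternatives run, other than leaving out a library, 445 of 543 values were classed as the same. A log2 fold change was so classed if it kept its direction and side of the threshold. A count of called genes or members was so classed if it stayed near that of the main fit. The cause of the changes below was not tested.

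The Tff3 call between lactose and galactose was lost with library totals (0.16), a tissue score of smooth muscle and fibroblast markers as a term (0.32), the short minus long gene score (0.18), limma voom (0.23), title numbers 1 to 18 alone (0.36) and 49 to 69 alone (0.24). With library totals Muc2 was the 1 member called, and in the other 5 of these settings 0 members were. Muc2 passed with library totals (−0.43 against galactose, −0.44 against glucose) and with the short minus long score against glucose (−0.31), which makes 1 member called against glucose. Library totals shift the median of all genes to −0.16 between lactose and galactose and −0.13 between lactose and glucose, and Muc2 lay below that median by nearly the same amount under either scaling. The test of any diet called 1 member with library totals, RLE size factors, robust dispersion and DESeq2. In the main fit it called 0 members and 30.3% of all tested genes.

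Each 3 neighbouring title numbers hold 1 mouse of each diet. The labels do not say that such a triplet shares anything, and 20 of 39 pairs of libraries in a triplet had a correlation of their deviations over 0.1 (median 0.108, against −0.018 for other pairs). With the triplet as a replicate block 3 members passed between lactose and galactose, Muc2 at −0.30 (adjusted p 0.00354 by edgeR), Zg16 at 0.35 (adjusted p 0.0116) and Tff3, 1 passed between lactose and glucose, Muc2 at −0.34 (adjusted p 0.00266), and 3 passed for any diet. In the fit without the block 30.9% of all tested genes passed between lactose and galactose, 15.6% between lactose and glucose and 30.3% for any diet. The block changes these shares as well, so the member counts cannot be set directly against them. The Muc2 value of the lactose mouse was above that of the glucose mouse in 0 of 13 triplets and above that of the galactose mouse in 2, and for Tff3 and Zg16 it was above each in 11.

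Over the fits without 1 library the range between lactose and galactose was −0.34 to −0.24 for Muc2, 0.26 to 0.33 for Tff3, 0.25 to 0.42 for Zg16, −0.074 to 0.055 for Agr2, −0.056 to 0.074 for Ccl6, −0.061 to 0.059 for Fcgbp, −0.021 to 0.058 for Spdef and −0.12 to 0.029 for Spink4. Between lactose and glucose it was −0.39 to −0.29 for Muc2 and −0.013 to 0.081 for Fcgbp. Between galactose and glucose it was −0.13 to 0.0033 for Agr2, −0.027 to 0.086 for Fcgbp and −0.16 to 0.014 for Zg16. The members called numbered 0 to 2 between lactose and galactose, 0 to 1 between lactose and glucose and 0 to 2 for any diet, and all genes called between galactose and glucose numbered 396 to 881, lowest without glucose mouse 10.

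Small log2 fold changes took the opposite sign as follows. Between lactose and galactose the triplet block gave 0.023 for Agr2 and 0.042 for Spink4, the crypt score 0.14 and 0.29 for the same genes, and the tissue score −0.030 for Spdef and 0.019 for Spink4. The distal minus proximal score gave 0.038 for Agr2, −0.13 for Ccl6, −0.014 for Fcgbp and 0.076 for Spink4, and the short minus long score −0.077 for Spdef. Library totals gave −0.14 for Ccl6, −0.081 for Clca1, −0.13 for Fcgbp and −0.12 for Spdef, and limma voom −0.051, −0.011, −0.0082 and −0.042 for these 4. Title numbers 1 to 18 gave 0.21 for Agr2, −0.024 for Spdef and 0.095 for Spink4, and 49 to 69 gave −0.13 for Ccl6, −0.17 for Clca1 and −0.10 for Fcgbp. The 2 diets alone gave −0.0063 for Ccl6 and −0.0014 for Fcgbp, and a filter of CPM 1 in 13 libraries −0.00030 for Ccl6. Between lactose and glucose the crypt score gave 0.081 for Agr2, 0.029 for Spdef and 0.060 for Spink4. The distal minus proximal score gave 0.045 for Agr2, −0.078 for Ccl6, −0.011 for Fcgbp, 0.079 for Spdef and 0.014 for Spink4. Title numbers 1 to 18 gave 0.12 for Agr2 and 0.11 for Spink4, 49 to 69 gave −0.058 for Clca1 and −0.021 for Fcgbp, and library totals −0.067 for Fcgbp. Between galactose and glucose the distal minus proximal score gave 0.0072 for Agr2. The short minus long score gave 0.013 for Agr2, −0.10 for Fcgbp, 0.012 for Spdef and 0.037 for Zg16, and limma voom 0.041 for Agr2, 0.051 for Muc2 and 0.015 for Spdef. Title numbers 1 to 18 gave −0.022 for Ccl6, −0.012 for Clca1, −0.031 for Fcgbp, 0.020 for Spink4 and 0.073 for Zg16. The tissue score gave −0.0095 for Clca1 and −0.016 for Fcgbp, the triplet block −0.013 for Fcgbp and library totals 0.00055 for Zg16.

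Over all genes, calls between galactose and glucose numbered 597 and changed to 237 with the short minus long score, 259 with the tissue score, 925 with the crypt score, 908 with the triplet block, 1247 with limma voom, and 72 and 179 in title numbers 1 to 18 and 49 to 69. Between lactose and glucose 2281 changed to 1337 with the distal minus proximal score, 1231 with the tissue score, 18 in title numbers 1 to 18 and 3527 with library totals, of which 623 were higher, against 1279 of 2281. Between lactose and galactose 4532 changed to 1472 with the tissue score and to 950 and 2932 in title numbers 1 to 18 and 49 to 69.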
